A study of Mus musculus with 16 samples.

Results

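Cyp1a1 and the other genes of the aryl hydrocarbon receptor route were measured by microarray in gastrocnemius, a muscle of the calf, of male C57BL/6N mice. The members were the 7 genes Cyp1a1, Cyp1b1, Ahr, Arnt, Ahrr, Tiparp and Nqo1, taken by the gene name that the array files give to their probes, and they were measured by 11 of the 41174 probes of the array, which carry 27745 gene names in all. Cyp1a1 was chosen by the diet difference of its log2 ratio on these same arrays, since the study lists it among the genes that differed, and the other members were added as genes of its pathway with results of these data known, so the log2 ratios of this comparison are given below as a description, with no p-value for any member; calls are counted only to set them beside those over all probes. All 16 mice, aged 3 months at the start, had eaten for 8 weeks the corn-oil-based high-fat diet cHF (lipid content 35% by weight) with 10 mg rosiglitazone per kg diet. Rosiglitazone is an agonist of the nuclear receptor PPARγ. The 8 cHF+ROSI mice received this diet, and for the 8 mice named cHF+F+ROSI, n-3 LC-PUFA (DHA and EPA, as a concentrate) took the place of 15% of the dietary lipids. All mice were then fasted for 10 hours, re-fed Chow diet overnight and killed the next morning, so that the last food of every mouse was Chow. Mice without rosiglitazone were not analysed here, and animals had been caged in pairs that the labels do not give.

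The aryl hydrocarbon receptor, encoded by Ahr, is a transcription factor of the bHLH-PAS family that waits in the cytosol bound to HSP90 and the co-chaperone p23 until a ligand enters the cell. Known ligands are dioxins and other planar aromatic compounds as well as products of tryptophan. The receptor then moves to the nucleus, pairs with ARNT and binds the core motif GCGTG near its targets. Cyp1a1 and Cyp1b1 encode P450 monooxygenases that oxidise such ligands and also fatty acids, among them n-3 LC-PUFA, and Cyp1a1 is the most widely used marker of receptor activity. Ahrr encodes the repressor that competes for ARNT, and Tiparp encodes an ADP-ribosyltransferase that limits the receptor; both are targets of it. Nqo1, a quinone reductase, responds to the receptor and to NRF2.

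The stretch just before the start of 3 target genes is shown because the RNA of these genes is commonly read as the output of the receptor. Each run holds 250 bases before the RefSeq start, 5′ to 3′ on the strand of the gene, with the letters GCGTG, or CACGC where the motif lies on the opposite strand, in capitals. The Cyp1a1 stretch is chr9:57697363-57697612 (plus strand), that of Cyp1b1 is chr17:79715062-79715311 (minus strand) and that of Ahrr is chr13:74292332-74292581 (minus strand), all in the build GRCm38.p6.
Cyp1a1: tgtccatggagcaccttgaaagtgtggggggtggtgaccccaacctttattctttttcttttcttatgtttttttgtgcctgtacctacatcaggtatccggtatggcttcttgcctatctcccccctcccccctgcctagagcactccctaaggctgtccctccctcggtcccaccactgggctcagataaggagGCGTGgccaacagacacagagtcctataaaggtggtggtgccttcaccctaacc
Cyp1b1: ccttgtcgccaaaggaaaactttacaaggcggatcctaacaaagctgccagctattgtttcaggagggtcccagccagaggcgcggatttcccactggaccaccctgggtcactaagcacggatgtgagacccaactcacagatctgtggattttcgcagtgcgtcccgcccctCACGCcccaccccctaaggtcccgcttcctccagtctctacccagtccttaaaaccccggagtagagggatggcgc
Ahrr: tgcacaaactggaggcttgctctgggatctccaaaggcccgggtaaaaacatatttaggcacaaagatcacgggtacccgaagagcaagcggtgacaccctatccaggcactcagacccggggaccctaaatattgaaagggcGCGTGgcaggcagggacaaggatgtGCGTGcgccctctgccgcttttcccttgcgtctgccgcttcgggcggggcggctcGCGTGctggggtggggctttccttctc

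Cyp1a1 held 1 match, on its own strand, 54 bases before the start. Cyp1b1 held 1 match, on the opposite strand, 76 bases before the start. Ahrr held 3 matches on its own strand, at 107, 82 and 27 bases. RefSeq windows were found for 6 of the 7 members, all but Ahr, and 5 of the 6 held the motif on either strand: Arnt and Tiparp also had 1 match each, and Nqo1 had 0. Of all 32851 windows of this length, 28.2% held the motif, so its presence is common, and the longer form TTGCGTG, which 0.925% of the windows held on either strand, was in none of the 6. The enhancer elements best known for Cyp1a1 lie further upstream than this window.

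Every mouse was measured on an array of its own. Its RNA carried the dye Cy5, and a reference pool carried Cy3 on every array, which the labels describe as made of all diets, a higher dose of rosiglitazone included, and which therefore held samples not analysed here, so that a value is a log2 ratio of the mouse to this pool. The arrays lay on 4 slides of 4, where positions 1 and 3 always held cHF+ROSI mice while positions 2 and 4 always held cHF+F+ROSI mice, so diet and position on the slide cannot be told apart, while slide and diet can. The median Cy5 signal was 2.91 to 3.53 times the local background on 15 arrays and 2.29 times on that of cHF+ROSI replicate 1, and in the Cy3 channel it was 1.76 to 2.00 times. All 8 markers of skeletal muscle fibres, among them Acta1, Ckm and Myh4, were well above background on all 16 arrays. Over all probes, limma called 20 at an adjusted p under 0.05, of which 8 were higher and 12 lower in the cHF+F+ROSI mice.

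Cyp1a1 was higher in the cHF+F+ROSI mice. The log2 ratios of the cHF+ROSI mice ran from -0.01 to 0.41 with a median of 0.26. Those of the cHF+F+ROSI mice ran from 0.435 to 0.94 with a median of 0.69. All 8 cHF+F+ROSI mice were above all 8 cHF+ROSI mice, with a narrow gap between the highest cHF+ROSI mouse, replicate 2, and the lowest cHF+F+ROSI mouse, replicate 2. With the background model fitted on all spots the groups overlapped. There cHF+F+ROSI replicates 5 (0.09) and 2 (0.23) lay below cHF+ROSI replicate 2 (0.41). In the table that the authors normalized they did not overlap (8.30 to 8.80 against 7.51 to 8.13). In the processing as reported, the means were 0.71 ± 0.15 and 0.23 ± 0.17 (SD, n = 8 each). The difference was 0.47 ± 0.07 on the log2 scale (SE of limma), or 1.39-fold with a 95% interval of 1.24 to 1.55. This interval does not allow for the choice of Cyp1a1 by the same comparison. Of the 11 member probes, this 1 was the only one whose groups did not overlap, beside 0.0971% of all probes, and the only one that limma called at an adjusted p under 0.05, beside 0.0486% of all probes; as this comparison chose Cyp1a1, nothing is read from either count. The call was made in 10 of 16 alternatives and with 13 of 16 arrays left out in turn, and it was lost without cHF+ROSI replicate 3, cHF+ROSI replicate 4 or cHF+F+ROSI replicate 5. These reruns use the arrays by which Cyp1a1 was chosen, so they describe the call and give it no support. The study also measured Cyp1a1 RNA by qRT-PCR in muscle of re-fed mice and reported a higher level with cHF+F+ROSI than with cHF+ROSI. Those values were not analysed here. In whole muscle, a larger number of cells that express a gene and more of its RNA per cell cannot be told apart.

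The difference in Cyp1a1 had the same sign on all 4 slides. The separation of the groups fixes this sign, also with any 1 array left out, so it gives no further support and only the sizes are described. On slide 1 it was 0.34, on slide 2 it was 0.58, on slide 3 it was 0.31 and on slide 4 it was 0.66, each from 2 mice per diet. By the same separation, both cHF+F+ROSI mice were above both cHF+ROSI mice on each slide. Leaving out any 1 array gave values between 0.44 and 0.51.

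**Figure D1:**
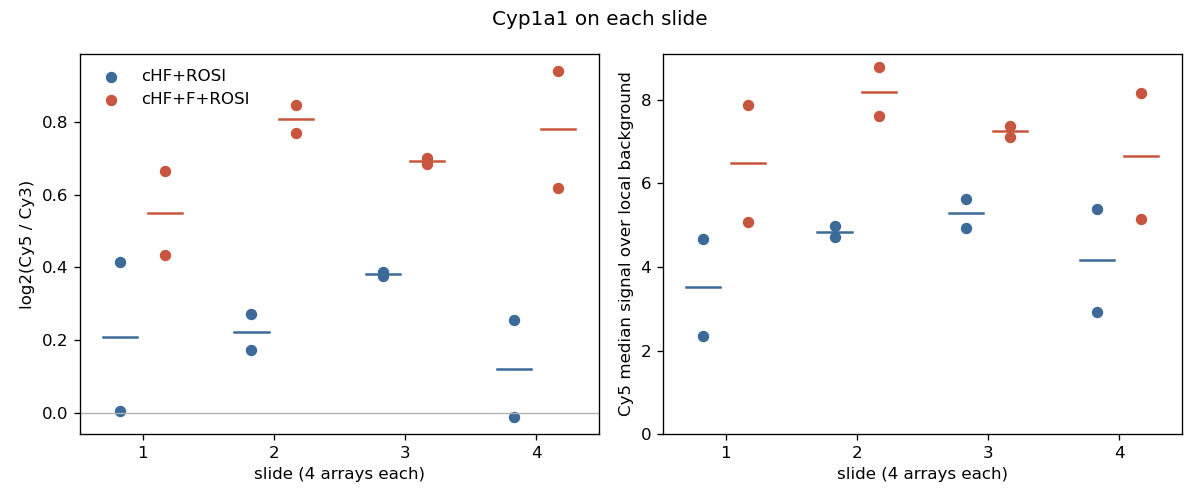
Cyp1a1 in the 16 mice by slide (x axis), as log2(Cy5/Cy3) on the left and as Cy5 median signal over local background on the right. Each point is 1 mouse and each short line the mean of 2 mice on 1 slide. The cHF+F+ROSI points lie above the cHF+ROSI points of the same slide on the left, with the slide differences between 0.31 and 0.66. On the right this holds on 3 of the slides, and on slide 4 the lower cHF+F+ROSI mouse, at 5.14, lies below a cHF+ROSI mouse at 5.40.

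The Cyp1a1 signal was weak in the Cy3 channel of the reference and clear in the Cy5 channel of the mice. The Cy3 channel was weak as a whole, with array medians over all probes of 1.76 to 2.00 times the background. The Cyp1a1 probe (chr9:57501865-57501924 in mm8, the build of the array's coordinates) was well above background in Cy5 on all 16 arrays, at 5.08 to 8.78 times the background in the cHF+F+ROSI mice (median 7.5) and at 2.36 to 5.63 times in the cHF+ROSI mice (median 4.82). In this raw measure 6 of the 8 cHF+F+ROSI mice were above every cHF+ROSI mouse. The Cy3 signal of the pool at the same spot was only 1.77 to 2.17 times the background and was well above it on 14 arrays, all but those of cHF+F+ROSI replicates 6 and 8. It did not separate the arrays by diet, with a difference of 0.002 ± 0.03 (log2, SE), and in limma's test of the Cy3 channel 0 of the 11 member probes and 0 of 41174 probes, or 0%, passed an adjusted p of 0.05. Before adjustment, 0 of the 11 and 3.38% of all probes had a p under 0.05 there (adjusted p of the members between 0.956 and 0.997).

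The size of the Cyp1a1 difference depended on how the signals were processed, while its sign did not in any of 13 alternatives. The difference was 0.38 where the background model was fitted on all spots, 0.63 in the table of log2 values that the authors normalized, 0.75 with median centring in place of loess, 0.76 in the Cy5 channel alone, 0.81 without the offset and 1.11 with the signals that Feature Extraction had corrected. The offset of 50 is added to both channels and by construction draws the ratio of a weak probe toward 0.

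**Figure D2:**
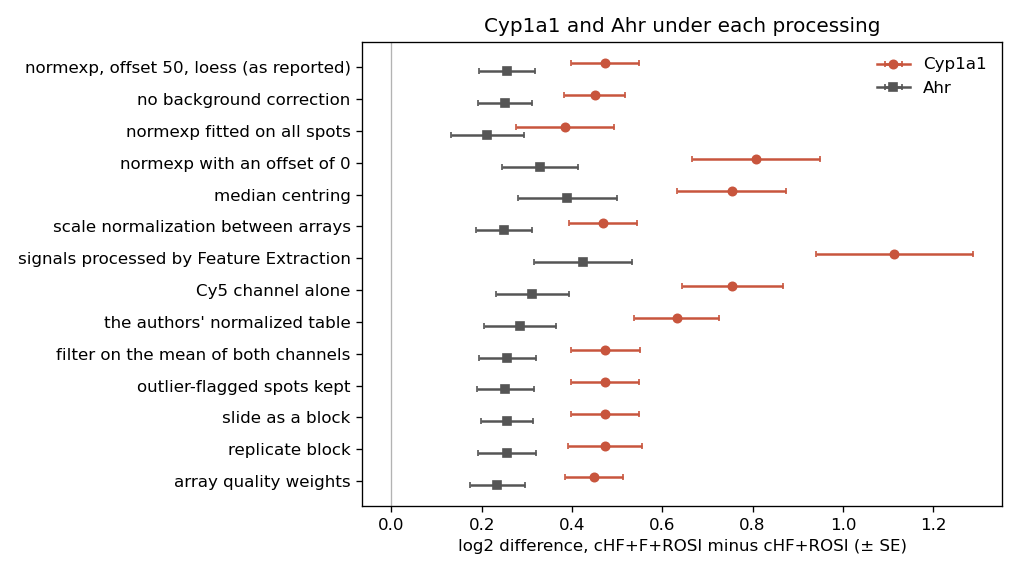
Log2 difference, cHF+F+ROSI minus cHF+ROSI (x axis, ± SE), of Cyp1a1 (circles) and Ahr (squares) under the processing as reported (top line) and 13 alternatives. All values are above 0, from 0.38 to 1.11 for Cyp1a1 and from 0.21 to 0.42 for Ahr.

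Ahr, the receptor, was also higher in most cHF+F+ROSI mice. Its probe (chr12:36083324-36083383 in mm8, minus strand) was printed at 10 spots on every array, of which 8 to 10 were left after outlier flags, so that the scatter between spots of an array could be seen. The spots of 1 array had an SD of 0.04 to 0.09 on the log2 scale, while the means of the mice had an SD of 0.16 in the cHF+F+ROSI group and 0.08 in the cHF+ROSI group (n = 8 each). The spots of an array share its RNA and hybridization, so they do not show the error between arrays, which the SD between mice also holds. The cHF+ROSI mice had log2 ratios of 0.11 to 0.35 (median 0.25) and the cHF+F+ROSI mice of 0.29 to 0.79 (median 0.46). The groups overlapped in 1 mouse, cHF+F+ROSI replicate 6, and the other 7 cHF+F+ROSI mice were above all cHF+ROSI mice. The difference was 0.26 ± 0.06 (SE), or 1.19-fold (95% interval 1.09 to 1.31). It was 0.26, 0.36, 0.06 and 0.35 on slides 1 to 4, and it was positive in all 14 alternatives, up to 0.42 with the signals of Feature Extraction. The filters and the blocks among these leave it unchanged and say nothing about its sign. The Cy5 signal over background was 10.7 to 16.8 for cHF+F+ROSI mice and 4.96 to 13.6 for cHF+ROSI mice, of which replicate 1 was lowest.

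Arnt, the partner that the receptor needs to bind DNA and that is shared with the hypoxia factors, gave no common direction. It was measured by 4 probes on chromosome 3, each for another transcript record. Probe 1 (chr3:95582414-95582473) had log2 ratios of 0.54 to 0.96 in the cHF+ROSI mice (median 0.68) and of 0.47 to 0.84 in the cHF+F+ROSI mice (median 0.63). Its groups lay over each other. The difference was -0.06 ± 0.06 (SE). Its sign turned with median centring (0.07) and with the signals of Feature Extraction (0.008), where the median of all probes was 0.04 each time. Without cHF+ROSI replicate 8, the highest mouse, the difference was -0.02. Probe 2 (chr3:95580915-95580975) had a difference of 0.04 ± 0.06, which also turned sign in 2 alternatives and was 0.006 without cHF+ROSI replicate 1. Probe 3 (between 95576047 and 95576473), at -0.03 ± 0.05, turned sign in 2 as well, and ran from -0.06 to -0.01 when each array was left out. Probe 4 (chr3:95570545-95570604) had a difference of 0.13 ± 0.07 and a 95% interval from -0.02 to 0.29, and its Cy3 signal was well above background on only 4 arrays.

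Cyp1b1, the other P450 target among the members, did not separate the groups. Probe 1 (chr17:79615533-79615592, minus strand), at 3.19 times the background in Cy5, had log2 ratios of -0.34 to 0.19 in the cHF+ROSI mice (median 0.06) and of -0.06 to 0.24 in the cHF+F+ROSI mice (median 0.12). The highest and the middle of both groups lay close together, and the lowest value was that of cHF+ROSI replicate 2. The difference was 0.08 ± 0.07 (SE), with a 95% interval of 0.960- to 1.17-fold. It was 0.35, -0.005, 0.17 and -0.18 on slides 1 to 4, and with the signals of Feature Extraction it was 0.43. Without cHF+ROSI replicate 2 it was 0.03. Probe 2 (chr17:79609904-79609963) was not well above background on any array in either dye, so no fold is given for it.

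Ahrr, the repressor, was at the limit of detection. Its probe (chr13:74677120-74677166) was well above background in Cy5 on 1 of the 8 cHF+ROSI arrays and on 0 of the 8 cHF+F+ROSI arrays, and in Cy3 on none. The Cy5 signal was 1.63 to 2.88 times the background in the cHF+ROSI mice and 1.86 to 2.66 times in the cHF+F+ROSI mice. These ranges lie over each other, and no fold is given.

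Tiparp varied more between mice than any other member. Its probe (chr3:65642756-65642815) was well above background in both dyes on all arrays. The cHF+ROSI mice had log2 ratios of -0.37 to 0.16 (median -0.22) and the cHF+F+ROSI mice of -0.60 to 0.89 (median 0.08). Of the cHF+F+ROSI mice, 3 lay above all cHF+ROSI mice and 2 below all of them. The difference was 0.20 ± 0.16 (SE), with a 95% interval from -0.13 to 0.54, and it rested on slide 3, where it was 0.69, against -0.03, -0.02 and 0.18 on the other slides. Without cHF+F+ROSI replicate 6, the highest mouse, it was 0.08. Its SD within groups, 0.36, was higher than that of 97.8% of all probes.

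Nqo1, which answers to NRF2 as well as to the receptor, was clearly detected in both dyes on all arrays (chr8:110277669-110277728). The log2 ratio was -0.20 to 0.30 in the cHF+ROSI mice (median 0.26) and -0.34 to 0.25 in the cHF+F+ROSI mice (median 0.18). No cHF+F+ROSI mouse was above the median of the cHF+ROSI mice, though 4 of the 8 were above their mean, which includes the low value of cHF+ROSI replicate 6. The difference was -0.11 ± 0.09 (SE), with a 95% interval of 0.811- to 1.06-fold. Its sign turned with median centring (0.02), where the median of all probes was 0.04. Without cHF+F+ROSI replicate 8, the lowest mouse, the difference was -0.05. It was -0.25, -0.04, 0.31 and -0.47 on slides 1 to 4.

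**Figure D3:**
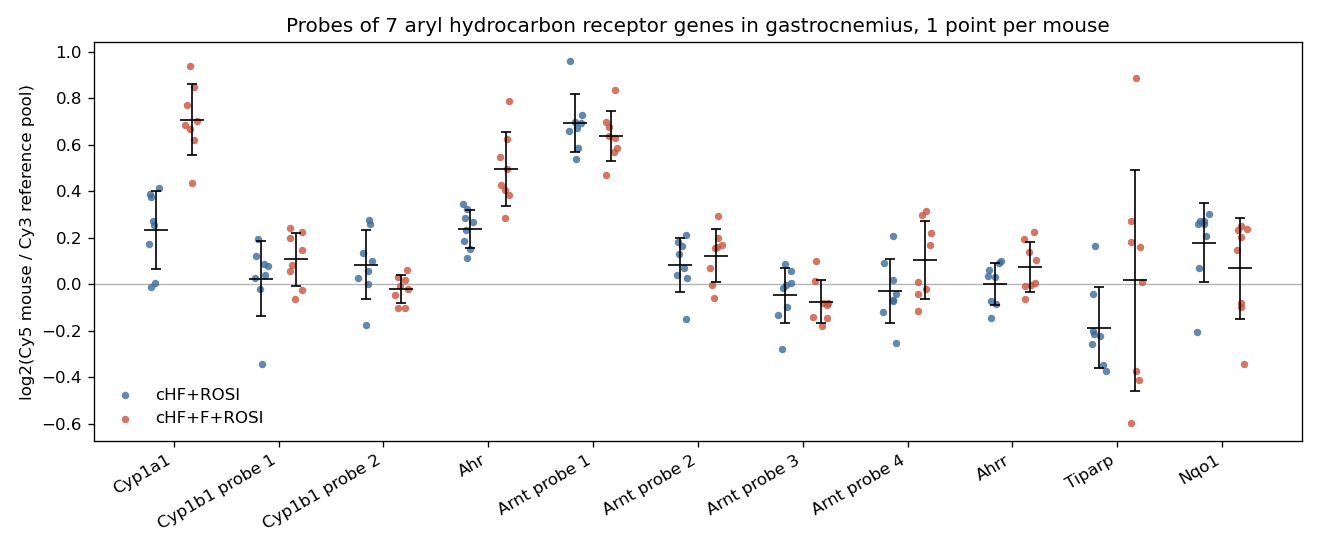
Log2(Cy5/Cy3) of the 11 member probes (x axis) in each of the 8 cHF+ROSI and 8 cHF+F+ROSI mice. Each point is 1 mouse, the bar is the mean and the whiskers are 1 SD. The groups do not overlap for Cyp1a1, overlap in 1 mouse for Ahr and lie over each other for the other probes, with the widest spread for Tiparp.

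**Figure D4:**
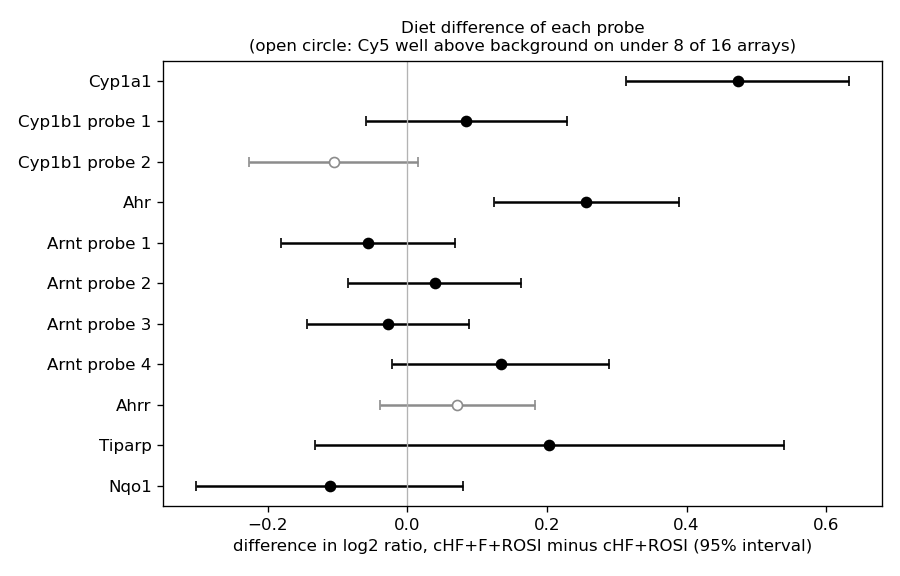
Difference in log2 ratio, cHF+F+ROSI minus cHF+ROSI, of each member probe, with its 95% interval from limma's standard error. The values run from -0.11 (Nqo1) to 0.47 (Cyp1a1), and open circles mark the probes of Ahrr and Cyp1b1 that were near background. The members were chosen with results of this comparison known, so the intervals are descriptions and no test is read from them.

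With the mean of each group removed, Cyp1a1 and Ahr varied alike over the 16 mice, with r = 0.60 and Spearman's rho = 0.63, and r was 0.60 without the 2 mice farthest from the median in Cyp1a1 on this scale (cHF+F+ROSI replicate 2 and cHF+ROSI replicate 7). The 4 probes of Arnt had r of -0.34, 0.27, -0.13 and 0.40 in order, and -0.16, 0.78, -0.28 and 0.33 without those mice. For Tiparp r was -0.105, and -0.52 without them. For Nqo1 it was -0.05, for Ahrr -0.27, and for the probes of Cyp1b1 -0.40 and 0.04. These are descriptions, since both values of a mouse come from 1 array and 1 reference. The lowest median Cy5 signals over background were those of cHF+ROSI replicate 1 (2.29), cHF+F+ROSI replicate 2 (2.91) and cHF+ROSI replicate 7 (2.94). On these arrays Cyp1a1 was at 0.005, 0.435 and -0.010, the lowest ratios of each diet, and Ahr was at 0.11, 0.43 and 0.15. The part of array signal in these correlations, and in the likeness of the genes named next, was not tested. Of 19180 candidate probes with a signal of at least 2 times background in both dyes, the 5 genes most like Cyp1a1 were Ptcd3 (r = 0.87), Spred2 (0.87), Tnk2 (0.85), Atpaf1 (0.83) and Hdac7a (0.83). Ptcd3 and Atpaf1 encode mitochondrial proteins of translation and of ATP synthase assembly, Spred2 an inhibitor of the RAS-ERK route, Tnk2 a tyrosine kinase and Hdac7a a histone deacetylase. None of the 5 was called between the diets (limma, adjusted p between 0.509 and 0.965).

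To see the rest of the pathway, 59 other genes were listed by role, of which 58 were on the array, each read from its brightest probe. In limma 0 of the 58 passed an adjusted p of 0.05 over all probes. At an unadjusted p under 0.05 there were 7, or 12.1%, beside 7.84% of all probes, with 3 higher (Xdh, Tph1 and Gsta4) and 4 lower (Arntl, Gclc, Ptges3 and Cyp2s1) where n-3 LC-PUFA were fed. The list was made with earlier results of these data known and holds brighter probes than the array as a whole. Among probes that passed the filter on both channels, 7 of 45 pathway genes and 2018 of 19392 probes had such a p in limma. Nothing is read from these shares. The methods' t-test also called 0 after adjustment. The median difference of the 58 was -0.003, and that of all probes was 0.001. Of the 58, 28 were above and 30 below 0.

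Of the 13 other target enzymes and targets on the array, 9 were well above background in Cy5 on at least 8 arrays, and Cyp1a2, the P450 gene next to Cyp1a1, was so on only 1 (Cyp1a2, and Kmo below, were named after their values were seen). Xdh, which encodes xanthine dehydrogenase, an enzyme of purine breakdown, had log2 ratios of -0.30 to 0.22 in the cHF+ROSI mice and of 0.02 to 0.65 in the cHF+F+ROSI mice. The difference of 0.43 ± 0.08 (SE) did not pass (limma, adjusted p = 0.0651), and it passed in 3 of the alternatives: with the replicate number as a block, with array weights, and without cHF+F+ROSI replicate 2. A second probe of Xdh had a difference of 0.31 ± 0.07 (adjusted p = 0.144). Gsta4, a glutathione transferase for products of lipid peroxidation, had a difference of 0.12 ± 0.05 (adjusted p = 0.513). Cyp2s1, a further P450 gene that the receptor induces, had -0.24 ± 0.10 (adjusted p = 0.543), and Hes1, a repressor downstream of Notch, had -0.16 ± 0.09.

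Of the 10 genes that make ligands or their precursors from tryptophan, 6 were well above background on at least 8 arrays, and Kmo was so on none. Tph1, the first enzyme of serotonin synthesis outside the brain, had log2 ratios of -0.49 to 0.13 in the cHF+ROSI mice and of -0.07 to 0.70 in the cHF+F+ROSI mice, a difference of 0.48 ± 0.10 (SE) that did not pass (limma, adjusted p = 0.0858). Its second probe, well above background on 8 arrays, had 0.24 ± 0.075 (adjusted p = 0.393). Ido1 (named Indo on the array), which opens the kynurenine route, had a difference of 0.12 ± 0.12, and 1 cHF+F+ROSI mouse stood at 1.03. Afmid and Ccbl1, which act further down this route, had differences of -0.04 ± 0.05 and -0.06 ± 0.06.

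All 6 genes of the cytosolic receptor complex were well above background on all arrays. Ptges3, the co-chaperone p23, had a difference of -0.16 ± 0.06 (limma, adjusted p = 0.518). The HSP90 genes had -0.10 ± 0.22 (Hsp90aa1) and -0.05 ± 0.08 (Hsp90ab1), and Src, a kinase held in the complex, had 0.01 ± 0.04. Among the 6 genes of related PAS-domain proteins, which share partners or DNA sites with the receptor, the clock gene Arntl had -0.41 ± 0.16 (adjusted p = 0.521). The hypoxia factors Epas1 and Hif1a had 0.15 ± 0.09 and 0.03 ± 0.04, and Clock had 0.11 ± 0.08.

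The 8 coregulators were detected on all arrays and had differences between -0.11 (Crebbp) and 0.10 (Ncoa2, a coactivator), with 0.09 for Ncoa3 and -0.08 for Ncor1, and none had an unadjusted p under 0.05. Of the 9 genes of the NRF2 route, which shares Nqo1 with the receptor, 6 were below 0. Gclc, the catalytic subunit that starts glutathione synthesis, had -0.17 ± 0.05 (limma, adjusted p = 0.4003). Keap1, the inhibitor of NRF2, had -0.14 ± 0.07, Txnrd1 had -0.10 ± 0.06, and Mafg, a partner of NRF2, had -0.13 ± 0.09. Of the 6 genes that supply electrons to P450 enzymes or handle their products, 4 were above 0. Por, the reductase that Cyp1a1 depends on, had 0.13 ± 0.08, Cyb5 had 0.15 ± 0.07, and the epoxide hydrolases Ephx1 and Ephx2 had 0.10 ± 0.10 and 0.12 ± 0.10.

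**Figure D5:**
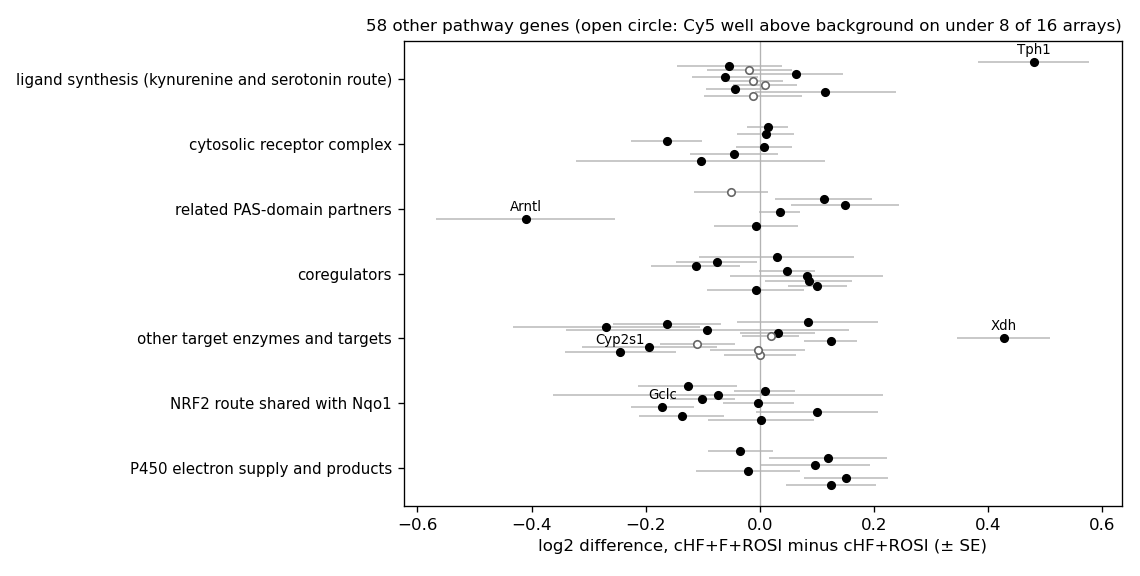
Log2 difference, cHF+F+ROSI minus cHF+ROSI (x axis, ± SE), of the 58 other pathway genes by role (y axis). Each point is 1 gene, and open circles were near background. Xdh (0.43) and Tph1 (0.48) lie farthest to the right and Arntl (-0.41) farthest to the left, and 0 of the 58 passed an adjusted p of 0.05 in limma.

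Markers of cells in which Cyp1a1 can be expressed were read beside it, each from its brightest probe. Pecam1, Cdh5, Kdr, Tek and Vwf have further probes, which are not given here. Of 8 endothelial markers, all well above background on all arrays, 6 had a negative difference, each with an unadjusted p under 0.05 (Pecam1, Cdh5, Kdr, Tek, Esam1 and Cldn5), while 0 passed an adjusted p of 0.05 in limma. Over all probes 7.84% had such a p. Tie1 (0.03 ± 0.07) and Vwf (0.21 ± 0.13) had a positive difference, and the median of the 8 was -0.13. Their summed Cy5 intensity (after quantile normalization) spanned 22150 to 34260 with n-3 LC-PUFA (median 24480) and 24450 to 28030 without (median 27350). Of 5 hepatocyte markers on the array, 3 were well above background on all arrays, the median difference was -0.01 and 0 had an unadjusted p under 0.05. Their SDs within groups were 0.18 (Ttr) to 1.59 (Alb1), and their summed Cy5 intensity spanned 3591 to 21140 with n-3 LC-PUFA and 2367 to 18620 without. Of the 6 adipocyte markers 5 had a positive difference, with a median of 0.42 and SDs of 0.50 to 1.14 within groups, and 0 had an unadjusted p under 0.05; their summed Cy5 intensity spanned 27000 to 199600 with n-3 LC-PUFA and 32350 to 96190 without. The part of these cells in the Cyp1a1 difference was not tested.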

How the data were processed

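Arrays of 2 colours from Agilent measured gastrocnemius RNA of 16 mice, 8 per diet. Per the file headers, the deposited intensities of spots come from Feature Extraction (version 10.5.1.1, while the submitters' processing notes name 10.5.5.1), and a table of normalized log2 values, which the authors made after removal of weak spots, served as an alternative. In that table the columns of the cHF+F+ROSI mice carry no replicate number that matches the labels.

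From the deposited median intensities, background was removed with normexp (offset 50) and the log2 ratio of Cy5 to Cy3 was fitted with a loess curve per array, control spots having weight 0. Outlier-flagged spots were dropped, and the remaining spots of a probe were averaged. No filter on signal was used. Before the normexp fit, 0 to 93 spots per array were removed because their local background was over 3 times the median of the array. On 5 arrays a few of these spots had drawn the fitted mean of the Cy5 background to between -226 and -991, and the ratios of these arrays were drawn toward 0: the Cyp1a1 ratio of cHF+F+ROSI replicate 5 was 0.09 with these spots in the fit and 0.77 without. That of cHF+ROSI replicate 5 was 0.03 with them and 0.38 without. The removal of these spots was chosen after the data were seen, and the fit on all spots is an alternative. Diets were tested in limma 3.58.1 (lmFit, then eBayes; R 4.3.3) with no block, and p-values were adjusted by Benjamini-Hochberg over 41174 probes. Intervals use 14 residual degrees of freedom and do not allow for the choice of the members with results of this comparison known. The chain was tested on these same arrays with the diet labels mixed and a known change added to the Cy5 signal of brighter probes. Weak probes, such as those of Ahrr and Cyp1b1, could not be among the changed ones.

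The members and the lists were chosen with earlier results of these data known, and no p-value is given for a member's log2 ratio between the diets, though its probes were part of the fit and its calls are counted. The Cy3 channel was tested for the members too. Named pathway genes were, per role, up to 4 with the smallest unadjusted p among those well above background in Cy5 on at least 8 arrays, and any past an adjusted p of 0.05. Marker lists of skeletal muscle fibre, endothelium, adipocyte and hepatocyte are given in the report. For the fibroblast, macrophage and red blood cell lists, 0 of 6, 0 of 5 and 0 of 4 genes passed an adjusted p of 0.05 in limma, with median differences of -0.07, 0.03 and 0.19. At an unadjusted p under 0.05 there were 2 fibroblast markers, Pi16 (-0.63) and Lum (-0.22), and 0 of the other lists. Coordinates of probes are those of the array (mm8), and exon or UTR positions were not assigned here. Promoter windows are from RefSeq (GRCm38.p6). The alternatives changed the background correction, the normalization, the channel used, filters, blocks, weights, the methods' t-test and each array left out. Depth does not apply to arrays, and their number limits the precision.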

Additional observations from a re-analysis of the deposited data

Results flagged for a closer look

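Among 78 groups of mice tested (2 diets for each gene or probe named), 9 held a mouse far from the others by Dixon's ratio, beside the 3.9 that chance gives at 1 in 20. Among the members, cHF+ROSI replicate 2 had the low value of probe 1 of Cyp1b1 (-0.34, next -0.02), cHF+ROSI replicate 8 the high value of probe 1 of Arnt (0.96, next 0.73), and cHF+ROSI replicate 6 the low value of Nqo1 (-0.20, next 0.07). Among the other genes, cHF+F+ROSI replicate 1 had the high value of Indo (1.03, next 0.36) and the low value of Keap1 (-1.15, next -0.92). The value of Xdh in cHF+F+ROSI replicate 2 was low (0.017, next 0.353), that of Crebbp in cHF+F+ROSI replicate 8 was high (-0.046, next -0.203), that of Tph1 in cHF+ROSI replicate 5 was high (0.13, next -0.21) and that of Ephx1 in cHF+ROSI replicate 1 was low (-0.34, next 0.06). No Cyp1a1 or Ahr value stood out in this way.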

How the results depend on the processing

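The difference in Cyp1a1 moved by more than its spread between mice with an offset of 0 (0.81), median centring (0.75), the signals of Feature Extraction (1.11) and the Cy5 channel alone (0.76), and lay between 0.44 and 0.51 when each array was left out. Of 11 member probes, 7 had a positive difference, and 3 of the 5 left by the filter on both channels did. The count was 10 with the signals of Feature Extraction, 9 with median centring, and 6 with normexp fitted on all spots or in the Cy5 channel alone. The median difference of all probes was 0.04 with the signals of Feature Extraction and with median centring, beside 0.001 in the processing as reported. A count above 0 is therefore not on the same footing there. The 20 probes called over the array became 3 with normexp fitted on all spots, 3 with an offset of 0, 4 with median centring, 2 with the signals of Feature Extraction, 9 in the Cy5 channel alone, 3 with the methods' t-test, 10 in the table that the authors normalized, 40 with array weights, and 5 to 24 when each array was left out, where cHF+ROSI replicate 4 gave the lowest count. Cyp1a1 was not among the calls with normexp fitted on all spots, an offset of 0, the signals of Feature Extraction, the methods' t-test or the replicate block, and the filter on both channels leaves its probe out; the cause of the other losses was not tested. Of the pathway genes 1, Xdh, was called with array weights, and 0 to 1 when each array was left out. With the replicate number as a block, 6 probes over the array and 1 pathway gene (Xdh) were called; by construction the block leaves the Cyp1a1 difference of 0.47 as it is, its SE was 0.083 in place of 0.075, and it was not called. The labels link same-numbered mice by the number alone. The correlation of their deviations was over 0.1 in 2 of 8 pairs (from -0.27 to 0.34), which cannot show whether they shared a cage. In the Cy3 channel 0 probes were called in each of the 3 alternatives. The reference gives a weak denominator for Cyp1a1, Cyp1b1, Ahrr and probes 3 and 4 of Arnt, whose mean Cy3 signal was at most 1.95 times the background.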
